A study of Mus musculus with 8 samples.

Results

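The Ikaros zinc finger family of the mouse has 5 members, Ikzf1 to Ikzf5. They were taken by symbol from a table of 55487 genes, and all 5 were found there. RNA had been sequenced from mouse cells labelled Pro-B, precursors of the B lineage, in 4 libraries with the genotype label CD25_KO and 4 with the label WT. CD25 is the interleukin-2 receptor alpha chain, encoded by Il2ra. All 8 libraries carry the same cell type label. The sources used here give no strain, age or sex of the animals, nor the deleted part of the gene or the sorting gate. The question for the family was which of its transcripts differ between the genotypes, and at what level each member stands.

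Ikaros family proteins are nuclear zinc finger factors of lymphocytes. A block of N-terminal fingers binds DNA, and a C-terminal pair of fingers joins members to each other as homodimers or heterodimers. Ikaros (Ikzf1) is needed to enter the B lineage, and Aiolos (Ikzf3) acts beside it as precursors stop dividing and begin light chain rearrangement. Helios (Ikzf2) and Eos (Ikzf4) are best known from T cells, and Pegasus (Ikzf5) is the most distant member. The proteins recruit the NuRD nucleosome remodelling and deacetylase complex, and cereblon-binding drugs lead to the breakdown of Ikaros and Aiolos in human cells.

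The second zinc finger of each reading frame, counted from its start, is shown because it belongs to the DNA-binding block. The reading frames are those of GENCODE M21 transcripts on GRCm38, printed 5′ to 3′ on the coding strand, and the capitals mark the codons of the 2 cysteines and 2 histidines that hold the zinc ion.
Ikzf1: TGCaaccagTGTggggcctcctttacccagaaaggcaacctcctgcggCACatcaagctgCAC
Ikzf2: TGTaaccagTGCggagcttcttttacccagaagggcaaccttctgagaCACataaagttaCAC
Ikzf3: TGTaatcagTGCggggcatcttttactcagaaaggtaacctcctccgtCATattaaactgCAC
Ikzf4: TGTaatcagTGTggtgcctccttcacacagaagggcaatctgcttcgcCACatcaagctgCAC
Ikzf5: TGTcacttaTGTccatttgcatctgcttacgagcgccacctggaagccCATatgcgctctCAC

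Each stretch lies within 1 coding exon. The Ikzf1 stretch is at chr11:11754024-11754086 on the plus strand. The others are on the minus strand, at chr1:69570581-69570643 for Ikzf2, chr11:98488940-98489002 for Ikzf3, chr10:128640229-128640291 for Ikzf4 and chr7:131392501-131392563 for Ikzf5. Over these 63 bases Ikzf1 matched Ikzf4 at 53 positions, and Ikzf2 and Ikzf3 at 51 each. Ikzf5 matched Ikzf1 at 26 positions, with the fingers paired only by their order in the frame. Whether the second finger of Ikzf5 is the counterpart of the others was not tested. The spacing of such fingers was searched for in the longest reading frame of each gene. It was found 4 times in the first part and 2 times in the last part for Ikzf1, Ikzf2 and Ikzf3. For Ikzf4 the counts were 4 and 1, and for Ikzf5 3 and 2. A finger of other spacing, or of another transcript, would be missed, so these counts do not show that a member lacks a finger. The longest run of identical bases between annotated transcripts of any 2 members was 32 bases, between Ikzf2 and Ikzf4, and for Ikzf1 and Ikzf3 it was 26 bases.

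Library totals ran from 43974037 to 57988772 counts, and 18884 genes had enough counts to be tested with edgeR. Of these, 0 passed an adjusted p of 0.05 (0.00%). At an unadjusted p under 0.05, edgeR counted 2388 genes (12.6%), and DESeq2 called 6 genes after adjustment. Il2ra stood at 200.2, 216, 216 and 140 CPM (counts scaled to the library total) in wild type libraries 1 to 4 and at 145, 168, 244 and 168 CPM in the libraries labelled knockout. The groups overlapped, with a log2 fold change of -0.09 ± 0.19 (SE), so the transcript does not separate the labels, and the knockout group is named by its label here. Pro-B markers Il7r, Ebf1 and Pax5 were well expressed, but Kit reached only 3.20 CPM, while the later-stage gene Ms4a1, named after its values were seen, stood between 596 and 838 CPM. Y-linked transcripts exceeded 5 CPM in wild type library 2 and in labelled knockout libraries 2 and 4. Wild type library 2 also held 60.0 CPM of Xist. Because the RNA is bulk, fewer cells of a type and less RNA per cell cannot be told apart in any value that follows. Nothing in the labels ties a library to its own animal, so the p-values measure the spread between libraries, which may be partly technical.

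**Figure D1:**
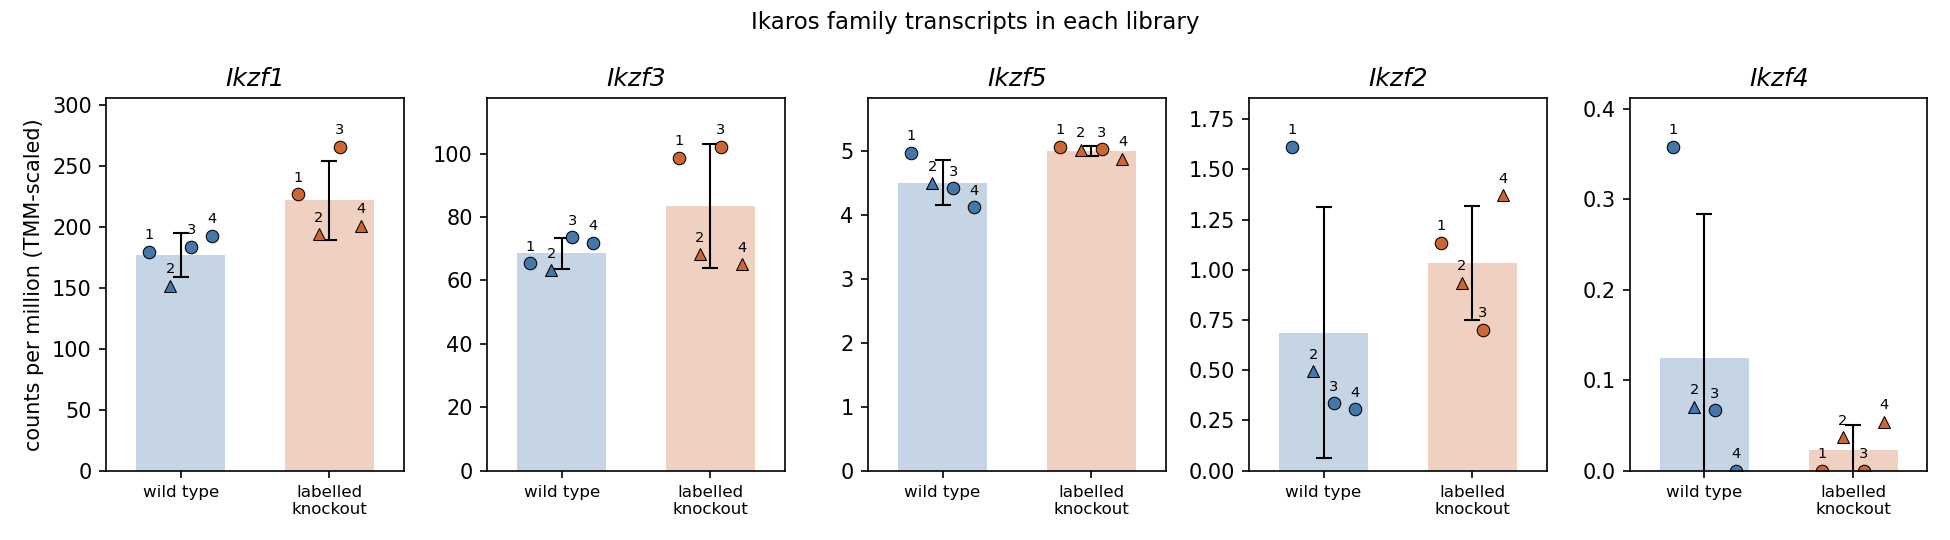
CPM of each member in each library, on a linear axis from 0 that differs between panels. Bars are means and whiskers SD of 4 libraries, numbers are library numbers, and triangles mark libraries with Y-linked transcripts above 5 CPM; the Ikzf1 groups do not overlap, and wild type library 1 stands alone for Ikzf2 and Ikzf4.

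Ikzf1 was the family member whose 2 groups did not overlap, at a level 1.25 times as high in the libraries labelled knockout. Ikzf1 (ENSMUSG00000018654.17, chr11:11685003-11772926, plus strand) encodes Ikaros. Wild type libraries 1 to 4 had 179, 151, 183 and 193 CPM. Labelled knockout libraries 1 to 4 had 226, 194, 266 and 201 CPM. Library 3 of the knockout label was highest and wild type library 2 lowest, and the gap between the groups was narrow, from 192.6 CPM in wild type library 4 to 193.6 CPM in labelled knockout library 2. The log2 fold change was 0.33 ± 0.12 (SE, n = 4 against 4), with a 95% interval from 0.05 to 0.60, which is a ratio between 1.04 and 1.52. In edgeR the unadjusted p was 0.025 and the adjusted p 0.391, so Ikzf1 did not pass the test. Of all genes tested, 5.53% were higher at an unadjusted p under 0.05 2.62% were higher with no overlap between the groups, and 6.79% had no overlap in either direction.

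Ikzf3 was high in labelled knockout libraries 1 and 3 only. Ikzf3 (ENSMUSG00000018168.8, chr11:98464902-98546031, minus strand) encodes Aiolos. It had 65.5, 63.3, 73.6 and 71.9 CPM in wild type libraries 1 to 4 and 98.7, 68.3, 102 and 65.0 CPM in those labelled knockout. Labelled knockout libraries 2 and 4 lay within the wild type range, so the groups overlapped. The spread was 7.22% of the mean in wild type and 23.5% in the labelled knockout. The log2 fold change was 0.29 ± 0.16 (SE), with a 95% interval from -0.08 to 0.65 and an adjusted p of 0.466. It was 0.18 without labelled knockout library 1 and 0.17 without labelled knockout library 3.

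The libraries with and without Y-linked transcripts were then read apart for Ikzf1 and Ikzf3. Among the libraries at or below 5 CPM of Y-linked transcripts, Ikzf1 averaged 185 CPM in 3 wild type libraries and 246 CPM in 2 labelled knockout libraries, a ratio of 1.33. Among those above 5 CPM it was 151 CPM in 1 wild type library and averaged 197 CPM in 2 labelled knockout libraries, a ratio of 1.30. For Ikzf3 the ratio was 1.43 among the libraries at or below 5 CPM and 1.05 among those above. The labelled knockout libraries were above the wild type ones for both genes in both sets. With a sex term in the edgeR fit, Ikzf1 had a log2 fold change of 0.40 ± 0.08 (SE) and an adjusted p of 0.0687, and Ikzf3 had 0.36 ± 0.11 (SE) and an adjusted p of 0.0976. When wild type library 4 was left out as well, a setting chosen after seeing the data, Ikzf1 passed with an adjusted p of 0.0170 in edgeR. In that fit 16.0% of all genes tested were called. In the fit without wild type library 4 alone (1.86% of genes called) and in the one with a sex term and without wild type library 2 (0.558% called), 0 members passed. A single wild type library stands above 5 CPM, and it is the one that also holds Xist.

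Ikzf5 ranged from 4.12 to 5.07 CPM over the libraries, and the groups overlapped. Ikzf5 (ENSMUSG00000040167.16, chr7:131388652-131410521, minus strand) encodes Pegasus. Wild type libraries 1 to 4 had 4.97, 4.50, 4.42 and 4.12 CPM, and labelled knockout libraries 1 to 4 had 5.07, 5.02, 5.03 and 4.88 CPM. Only wild type library 1 reached into the range of the labelled knockout. The log2 fold change was 0.15 ± 0.15 (SE), with a 95% interval from -0.18 to 0.48 and an adjusted p of 0.658.

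The count of Ikzf5 covers only a small part of the gene. Of its 5721 exon bases, 4835 (84.5%) are also exon of another gene, 4652 of them of Pstk on the opposite strand, which encodes a kinase of selenocysteine synthesis. The header of the count table records neither a strand setting nor the counting of fragments over overlapping genes, so fragments from the shared bases were left out for both genes. Pstk, named after its values were seen, had 5.09, 3.0, 5.65 and 6.13 CPM in wild type and 10.9, 8.54, 7.43 and 9.90 CPM in the labelled knockout. All 4 labelled knockout libraries were above all 4 of wild type, with a log2 fold change of 0.89 ± 0.24 (SE) and an adjusted p of 0.391 in edgeR. Whether shared exon bases bear on the Ikzf5 value was not tested.

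Ikzf2 was scarce, and 1 wild type library stood apart from the rest of its group. Ikzf2 (ENSMUSG00000025997.13, chr1:69531214-69687245, minus strand) encodes Helios. Wild type libraries 1 to 4 had 72, 28, 15 and 17 counts, or 1.61, 0.49, 0.33 and 0.30 CPM. Labelled knockout libraries 1 to 4 had 55, 51, 35 and 76 counts, or 1.13, 0.93, 0.70 and 1.37 CPM. Wild type library 1 was the highest of all 8, and the other wild type libraries were below every labelled knockout library. The log2 fold change was 0.60 ± 0.54 (SE), with a 95% interval from -0.60 to 1.80 and an adjusted p of 0.630. Without wild type library 1 it was 1.45 ± 0.37 (SE), with an adjusted p of 0.501 in edgeR, and without wild type library 4 it was 0.36.

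Other transcripts were also high in wild type library 1. Gm29112, annotated within an intron of Ikzf2 on the same strand, had 23 counts there and at most 8 elsewhere, and Gm29114 on the opposite strand had 15 counts there and at most 3 elsewhere. Both were named after their values were seen. T cell markers, 11 genes in all, summed to between 29.3 and 38.0 CPM in wild type and between 22.0 and 33.5 CPM in the labelled knockout, most of it Lck. Wild type library 1 had 33.5 CPM in that sum, below wild type library 2. The mean deviation of log2 CPM gives each marker the same weight but covers only the 6 tested markers. By it wild type library 1 was the highest of all 8 (0.65), with labelled knockout library 2 next (0.59). Cd3g (0.67 CPM), Trac (0.63 CPM), Cd8a (0.25 CPM) and Bcl11b (0.18 CPM) were higher in it than in any other library, and Cd3d (0.72 CPM) was below labelled knockout library 1 alone. Cd4 (0.63 CPM), Cd5 (0.81 CPM) and Lck (29.6 CPM) were each higher in several other libraries. Cd3e, Foxp3 and Ctla4, which were not tested, had 0 counts in wild type library 1. The 12 natural killer and innate lymphoid markers summed to 66.9 CPM in wild type library 1, the highest of all 8, where wild type ranged from 53.9 CPM and the labelled knockout from 25.5 to 49.4 CPM. Their part in the Ikzf2 value was not tested.

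Ikzf4 was at the limit of detection. Ikzf4 (ENSMUSG00000002578.18, chr10:128630843-128669358, minus strand) encodes Eos. It had 16, 4, 3 and 0 counts in wild type libraries 1 to 4 and 0, 2, 0 and 3 counts in those labelled knockout. Of the 23 wild type counts, 16 came from library 1, and the groups overlapped. The gene was left out of the test by the filter on low counts. A count of 0 allows up to 3 counts, which is between 0.05 and 0.07 CPM in these libraries and covers counting error only.

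**Figure D2:**
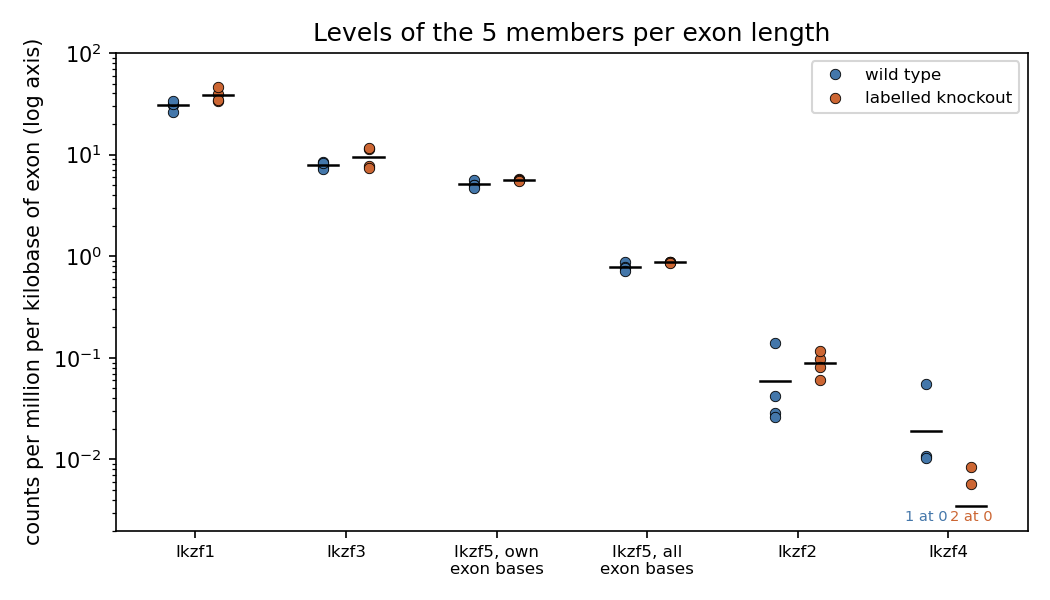
CPM per kilobase of summed exon for each member, on a log axis, with 1 point per library, a line at the mean of 4 libraries, and libraries at 0 given as text. Ikzf5 is shown over all its exon bases and over the bases no other gene shares, and the members keep 1 order in both groups.

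Per exon length, the levels of the members spanned more than 3 orders on a log10 axis, with Ikaros first. Ikzf1 had 30.6 ± 3.06 CPM per kilobase in wild type and 38.3 ± 5.63 in the labelled knockout (SD, n = 4 each). Ikzf3 followed with 7.83 ± 0.57 and 9.55 ± 2.24 CPM per kilobase. Ikzf5 had 5.08 ± 0.40 and 5.65 ± 0.09 CPM per kilobase over the 886 exon bases that it shares with no other gene, and 0.79 and 0.87 over all of its exon bases. Ikzf2 had 0.059 ± 0.054 and 0.089 ± 0.025 CPM per kilobase, and Ikzf4 had 0.019 ± 0.025 and 0.0035 ± 0.0042.

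The order from Ikzf1 through Ikzf3, Ikzf5 and Ikzf2 to Ikzf4 was the same in all 8 libraries. Ikzf3 (7.23 to 11.7 CPM per kilobase) did not overlap Ikzf5 as scaled to its own exon bases (4.65 to 5.73). How fragments that span own and shared bases bear on that Ikzf5 value was not tested, so its distance from Ikzf3 is uncertain. The ranges of the last neighbours did overlap, since Ikzf2 went down to 0.026 CPM per kilobase in 1 wild type library and Ikzf4 up to 0.055 in another.

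The makeup of the family was close in both groups. Ikzf1 made up 77.8% ± 1.05 of the family sum per kilobase in wild type and 78.6% ± 1.82 in the labelled knockout (SD, n = 4 each). Ikzf3 made up 19.97% ± 1.002 and 19.4% ± 2.02, and Ikzf5, over all of its exon bases, 2.02% and 1.82%. Over exon bases shared with no other gene, Ikzf5 made up 11.7% ± 1.43 and 10.7% ± 1.39. On that scale Ikzf1 made up 70.1% and 71.5%, and Ikzf3 18.0% and 17.6%. The ratio of Ikzf1 to Ikzf3 per kilobase ran from 3.48 to 4.67 over the 8 libraries, and the lowest and the highest ratio were both in the labelled knockout. These differences between groups lie within the spread of the libraries, and no test was run on them.

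**Figure D3:**
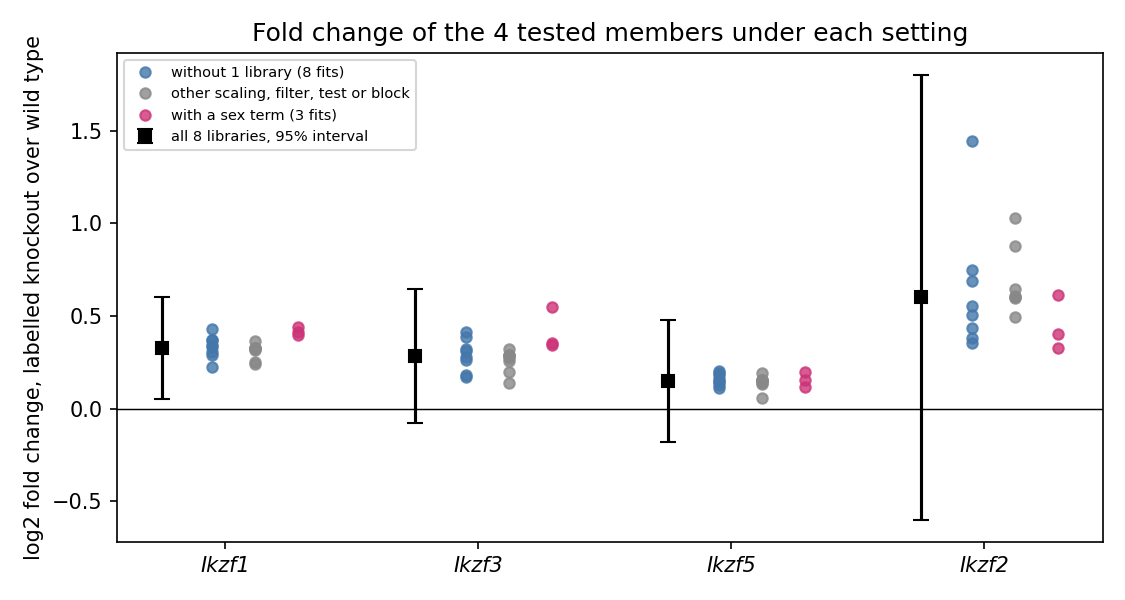
Log2 fold change of the 4 tested members, labelled knockout over wild type, with the 95% interval of the fit on all 8 libraries as a black bar and 1 point for each other setting. All points lie above 0, and the points of Ikzf2 reach 1.45 when wild type library 1 is left out.

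All 4 tested members had a positive log2 fold change, with a median of 0.31 beside 0.0033 over all genes tested. None of the 4 passed the adjusted test. The direction of each was positive in every other scaling, filter, test and left-out library that was run. Upper quartile scaling moved the median of all genes to -0.09 and gave Ikzf5 a log2 fold change of 0.06 and Ikzf1 0.24.

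Cell division genes and the erythroid, natural killer and neutrophil markers were lower in the libraries where Ikzf1 and Ikzf3 were highest. The other marker lists were mixed in direction. All 16 cell division genes were lower in the labelled knockout, and the median of their log2 fold changes was -0.59. In 11 of the 16 the unadjusted p in edgeR was under 0.05 (7.11% of all genes were lower at that threshold), and in 10 the groups did not overlap (4.17% of all genes were lower in that way). Their summed level was 3445 to 3813 CPM in wild type and 2083, 3247, 1518 and 3277 CPM in labelled knockout libraries 1 to 4. Libraries 1 and 3 had the highest Ikzf1 and Ikzf3 and the lowest sums, and alone in this group lacked Y-linked transcripts above 5 CPM. Examples were Cdc6, which loads the replicative helicase (79.4 ± 10.5 against 52.3 ± 11.1 CPM, SD, n = 4 each), and Pole, a replicative polymerase (38.8 ± 6.85 against 23.5 ± 6.44 CPM). Bub1, a spindle checkpoint kinase, had 87.8 ± 8.99 against 55.8 ± 17.0 CPM.

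Erythroid, natural killer and neutrophil markers were lowest in the same 2 libraries. Of 8 tested erythroid markers 7 were lower, and their list summed to 2897 to 8642 CPM in wild type and 266 to 2279 CPM in the labelled knockout. Of 11 tested natural killer and innate lymphoid markers 9 were lower, and all 10 neutrophil and monocyte markers were lower, with sums of 229 to 472 CPM in wild type and 99.4 to 403 CPM in the labelled knockout. Mature B markers, 3 higher and 4 lower, summed to 1401 to 1871 CPM in wild type and 1555 to 1669 CPM in the labelled knockout. Of 6 tested T cell markers 3 were higher and 3 lower, with a median log2 fold change of 0.16. Of 6 tested stem and progenitor markers 4 were higher and 2 lower, with a median of 0.18 and sums of 13.5 to 19.9 CPM in wild type and 12.2 to 16.9 CPM in the labelled knockout. Of 9 pro-B markers 3 were higher and 6 lower, with a median of -0.33. Their sum was highest in labelled knockout library 3 (4538 CPM). By mean deviation of log2 CPM that library was lowest (-0.32), with labelled knockout libraries 4 (-0.28) and 1 (-0.27) next. None of these list genes passed the adjusted test. Their part in the values of Ikzf1 and Ikzf3 was not tested.

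**Figure D4:**
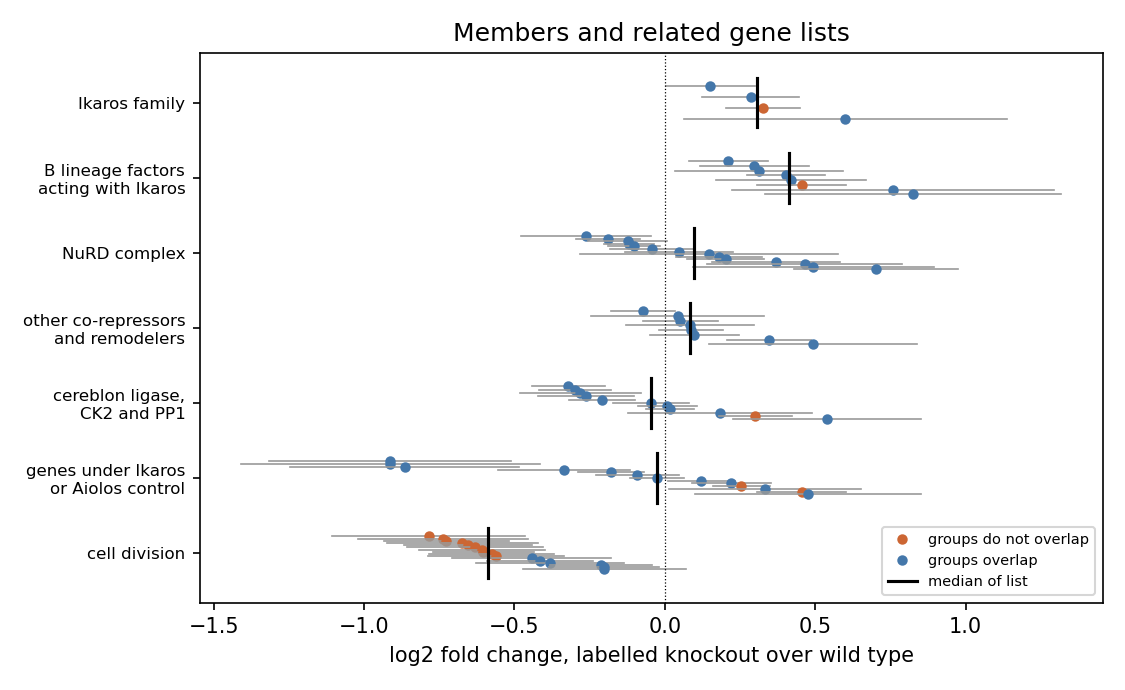
Log2 fold change, labelled knockout over wild type, of each tested gene of the family and of 6 related lists, with 1 SE as a grey line and the median of each list as a black line. Orange points are genes whose groups do not overlap; the lists of the family and of B lineage factors lie above 0, and cell division genes lie below 0.

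The factors that act with Ikaros in B lineage specification were all higher in the labelled knockout, 8 of 8 tested. Over all genes, 9515 of 18884 tested were higher. The log2 fold changes of the 8 factors had a median of 0.41, and none of the 8 passed the adjusted test. Foxo1, which drives recombinase expression, had 81.7 ± 3.13 against 112 ± 24.4 CPM (SD, n = 4 each) and groups that did not overlap. Ebf1, a factor that specifies the B lineage, had 575 ± 29.96 against 761 ± 144 CPM. Both were highest in labelled knockout library 3, followed by library 1, as Ikzf1 and Ikzf3 were. Runx1, a core-binding factor, had 41.7 ± 12.4 against 55.8 ± 17.2 CPM and another order, with labelled knockout library 1 highest (80.1 CPM) and wild type library 4 next (59.3 CPM).

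Wild type library 4 stood apart from the other wild type libraries in this list. Its summed level was 1622 CPM, above labelled knockout libraries 2 and 4 (1492 and 1504 CPM), while the other wild type libraries had 1027 to 1227 CPM. Spi1, which encodes PU.1, and Tcf3, which encodes the E2A proteins, were named after their values were seen. Spi1 had 133 CPM in labelled knockout library 1 and 113 CPM in wild type library 4, and at most 32.9 CPM in the other wild type libraries. Tcf3 had 643 CPM and 556 CPM in the same libraries, and at most 189 CPM in the other wild type ones. Without wild type library 4 the log2 fold change went from 0.76 to 1.63 for Spi1 and from 0.83 to 1.58 for Tcf3, both with an adjusted p of 0.0493 in edgeR, in a fit that called 1.86% of all genes.

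The NuRD complex, which Ikaros recruits, was split in direction. Of its 14 genes 8 were higher and 6 lower, with a median of 0.10 and none past the adjusted test. Chd3, a remodelling ATPase of the complex, had 13.1 ± 4.66 against 21.3 ± 6.10 CPM, with a log2 fold change of 0.70 ± 0.27 (SE). The histone-binding subunit Rbbp7 stood at 282 ± 19.96 against 248 ± 29.99 CPM, and the scaffold subunit Gatad2a at 29.4 ± 7.83 against 38.0 ± 7.98 CPM. Of 8 other co-repressors and remodelers 7 were higher, with a median of 0.09 and none past the test. Among them Smarca4, the ATPase of the BAF remodeler, had 1523 ± 221 against 1936 ± 318 CPM, and its subunit Smarcc1 had 66.9 ± 38.4 against 94.1 ± 25.6 CPM. Sin3b, a co-repressor scaffold, had 163 ± 21.7 against 173 ± 4.1 CPM.

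Enzymes that modify Ikaros proteins, or that degrade them under such drugs in human cells, were mixed as well. Of 11 genes of the cereblon ligase, casein kinase 2 and protein phosphatase 1, 5 were higher and 6 lower, with a median of -0.05 and none past the test. The catalytic subunits of casein kinase 2, which phosphorylates Ikaros, went in opposite directions. Csnk2a1 had 103 ± 13.6 against 82.3 ± 7.20 CPM, and Csnk2a2 had 17.5 ± 0.89 against 21.5 ± 2.19 CPM with groups that did not overlap. Rbx1, the RING subunit of the ligase, had 220 ± 26.6 against 179 ± 20.9 CPM.

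Genes known to be under the control of Ikaros or Aiolos in B cell precursors, Foxo1 again among them, were split. Of 13 tested, 6 were higher and 7 lower, with a median of -0.03 on the log2 scale and none past the adjusted test. Igll1, a surrogate light chain gene that Ikaros and Aiolos repress, had 206, 153, 88.6 and 204 CPM in wild type libraries 1 to 4 and 75.1, 159, 38.8 and 72.9 CPM in the labelled knockout. The groups overlapped, with labelled knockout library 3 lowest and library 2 within the wild type range, and the log2 fold change was -0.91 ± 0.40 (SE, adjusted p = 0.393). Vpreb1, the other surrogate light chain gene, and Dntt, which encodes terminal transferase, had log2 fold changes of -0.86 and -0.91. Syk, a kinase of the pre-B cell receptor, had 786 ± 19.6 against 937 ± 110 CPM (SD, n = 4 each), with groups that did not overlap.

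For each tested member the 3 genes with the most similar profile were read by Pearson's r of log2 CPM over the 8 libraries, among the 8720 genes that averaged 5 CPM or more. For Ikzf1 they were Gsk3b (r = 0.995), Usp3 (0.986) and Aff1 (0.982). For Ikzf3 they were Sema4b (0.980), Fbxl20 (0.976) and Eif4g3 (0.976). Those of Ikzf5 were Bace1 (0.951), Trub2 (0.949) and Gnaq (0.930), and those of Ikzf2 were Rybp (0.949), Rchy1 (0.930) and Btd (0.930). The 8 points share libraries, depth and scaling, and the genes were picked as the highest of many, so r is a description only.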

How the data were processed

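The deposited file holds raw fragment counts for each gene in 8 libraries, beside its exon length. Per the file headers, the authors counted with featureCounts 2.0.1 in paired mode over exons of GENCODE M25, with multi-mapping fragments counted and no strand option. The build was mm10 and the tools included GATK 4.1.9.0 and STAR 2.7.7a, per the submitters' processing notes. The table had 0 columns of other samples.

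Symbols came from GENCODE M21 on GRCm38 for 55141 genes, and 346 stayed unnamed. Genes kept by filterByExpr were scaled by TMM and tested with edgeR 4.0.16 (quasi-likelihood, robust, two-sided, Benjamini-Hochberg over 18884 genes, threshold 0.05) in R 4.3.3. CPM are TMM-scaled, and 95% intervals follow from the F value. Similar profiles used log2 of CPM plus 0.01. The code was tested on simulated data. The common biological coefficient of variation was 0.308. The closest libraries of a group differed by more than counting noise, with a chi-square of 29.5 per degree of freedom at the least of 12 pairs.

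The members and gene lists were chosen with earlier results of these data known. Named genes are the 5 members, Il2ra, pro-B markers, the 3 genes of smallest unadjusted p in each related list and the 3 most similar to each tested member; others are marked in the text.

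Alternatives were other scaling, filters, gene sets and tests (DESeq2 1.42.0, limma-voom 3.58.1), a replicate block, a sex term and each library left out. Settings with a sex term and 1 library left out, and the unshared exon length, were chosen after seeing the data.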

Additional observations from a re-analysis of the deposited data

Results flagged for a closer look

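Within-group spread was examined for 44 groups of 4 libraries, those of the members and of the named genes of the related lists, by the gap of the highest or lowest library to its neighbour over the group's range. Dixon's 95% limit was exceeded in 3 groups, where chance gives about 1 in 20. Ikzf2 in wild type library 1 had 1.61 CPM, with the next library at 0.49 CPM. Csnk2a1 in wild type library 4 had 82.4 CPM, where the next was 109 CPM. Csnk2a1 in labelled knockout library 1 had 71.6 CPM, where the next was 84.6 CPM.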

How the results depend on the processing

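Across the alternatives, 0 family members passed the adjusted test except for 1, Ikzf1, in the fit with a sex term and without wild type library 4. The number of all genes called was 363 without wild type library 4, 6 with the DESeq2 test, 3112 with a sex term and without wild type library 4, and 108 with a sex term and without wild type library 2, against 0 with all libraries and no such term. Genes called in the related lists numbered 4 without wild type library 4, 19 with a sex term as well, and 1 with a sex term and without wild type library 2. With each library left out in turn, the number of genes called ran from 0 to 363, that of members was 0 and that of list genes ran from 0 to 4. Il2ra ran from -0.27 to 0.0071, reversing in sign without wild type library 2 (0.0071) and with a sex term as well (0.11). Leaving out 1 library moved the log2 fold change of Ikzf1 between 0.23 and 0.43, that of Ikzf3 between 0.17 and 0.41, that of Ikzf5 between 0.11 and 0.20 and that of Ikzf2 between 0.36 and 1.45. With a sex term and without wild type library 2 Ikzf3 had 0.55. The stricter count filter left Ikzf2 untested. The share of Ikzf1 in the family was 70.9% without exon length and 70.8% over unshared exon bases, against 78.2% per kilobase. The causes of these shifts were not tested.

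With the replicate number as a block, 0 genes and 0 members were called and Ikzf1 had a log2 fold change of 0.32 (adjusted p = 0.277). Same-numbered libraries deviated together with r from -0.05 to 0.65, and differently numbered ones with r from -0.67 to 0.64. The labels state no pairing, and these values cannot tell whether the numbers pair the libraries. At 15 to 76 counts for Ikzf2 and 0 to 16 for Ikzf4, depth limits what can be seen of both.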
